A study of Mus musculus with 2 samples.

Results

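Matrix metalloproteinases (MMPs) and their tissue inhibitors (TIMPs) were followed through single-cell RNA of injured mouse carotid arteries. The 10 genes were 7 proteases, Mmp2, Mmp3, Mmp8, Mmp9, Mmp12, Mmp14 and Mmp19, and 3 inhibitors, Timp1, Timp2 and Timp3, taken by symbol from the 32285 genes counted. Each symbol belonged to 1 gene identifier, and all 10 genes had UMIs in both libraries. A UMI is a molecular tag that marks 1 captured RNA molecule. MMPs are zinc enzymes that cut collagens, elastin, proteoglycans and cell-surface proteins. Most are secreted as inactive precursors, while Mmp14 is anchored in the cell membrane. TIMPs bind the active site of MMPs and block it, and Timp2 together with Mmp14 also takes part in the activation of proMMP-2. In an injured artery these enzymes open the matrix around smooth muscle cells, fibroblasts and entering leukocytes. RNA levels do not report the activity of the secreted enzymes, which was not measured.

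The arteries were taken 18 hours after a temporary ligation that injures the endothelium, and each group had 1 library. Mice of both groups carried floxed alleles of the connexin gene, Cx43fl/fl. The control library, of genotype CDH5 Cre-, had no Cre. The other library, EC-Cx43-KO, was of genotype CDH5 Cre+, in which Cre is driven by the Cdh5 promoter of endothelial cells (EC) and is described as inducible. Neither the inducing agent nor its timing, nor the age and number of the mice, is given in the sources used here. Arteries of 1 condition were pooled after a short liberase digest chosen to favour the endothelial layer, then strained, treated to lyse red cells and frozen in DMSO. No test was possible on single libraries, and no difference was checked against replicates. The 95% intervals given cover only counting error, and any difference between libraries cannot be told apart from a difference between pools.

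There were 48862850 UMIs in 7298 barcodes of the control library and 54392831 UMIs in 8315 barcodes of the EC-Cx43-KO library. Filters kept 6376 and 7236 cells, at medians of 4708 and 4781 UMIs per cell. Of the barcodes, 17 occurred in both libraries, 11 of them among kept cells. Gja1, the gene of Cx43, stood in EC-like cells at 16.6 CPM in the control library (65 UMIs) and at 18.0 CPM in the other (70 UMIs), where CPM are UMIs per 1000000 UMIs of the class. The log2 ratio was 0.12, with an interval from −0.39 to 0.63, so the counts did not show a loss of Gja1 RNA. The deleted part of the gene is not given in the sources used here, and a 3′ tag outside it would not check the label. For these reasons the second library is called the library labelled knockout, or the knockout-labelled library, throughout, and every direction below is relative to that label. Cells of both sexes were present in unequal shares: 49.0% of control cells and 37.8% of knockout-labelled cells had Xist and no Y-linked UMIs, and 18.2% and 27.2% the reverse. Below these sets are called Xist cells and Y cells. Their values are given for part of the ratios whose direction between the libraries they turned, not for all.

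Cells fell into 22 clusters, made without the MMP, TIMP, ADAM and ADAMTS genes, and 19 were named by markers. The classes of most use here, given as control and then knockout-labelled cells, were monocyte/macrophage-like (1689 and 1993), fibroblast-like (1379 and 1580), neutrophil-like (1101 and 1290), smooth-muscle-like, called SMC-like (411 and 545), EC-like (396 and 435) and dendritic-like (162 and 166). EC-like cells had UMIs of all 10 of their markers in each library. Cluster c4 (574 and 335 cells; leading genes Fabp5, Ppbp, Tmem8 and Hmox1) stayed unnamed. All 15 monocyte/macrophage markers were detected in it, but its leading genes held more platelet than macrophage markers. Levels are CPM of the class total. Since 3′ counting gives 1 tag per molecule whatever its length, levels were not divided by gene length.

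Mmp3, Mmp8 and Mmp12 lie side by side, and their start regions are shown because these neighbours were found in different cells. On the GRCm38 build the 3 genes span 224 kb of chromosome 9. Mmp12 lies at chr9:7344381-7369499, Mmp3 at chr9:7445822-7455975 and Mmp8 at chr9:7558456-7568485, all on the + strand. The span holds 5 protein-coding genes, all of them MMPs, the other two being Mmp1b and Mmp10. The other members lie elsewhere: Mmp2 at chr8:92827291-92853420, Mmp9 at chr2:164940780-164955850, Mmp14 at chr14:54431612-54445364, Mmp19 at chr10:128790910-128800824, Timp1 at chrX:20870166-20874735, Timp2 at chr11:118301069-118355740 on the minus strand and Timp3 at chr10:86300372-86349506. Several members overlap another annotated gene: Mmp12 with Mmp1b, Mmp19 with Gm47093 and Tmem198b, Timp1 with Syn1 and Timp3 with Syn3, all on the opposite strand, and Timp2 with Cep295nl on the same strand. Whether counting used the strand is not given in the sources used here, so reads from these overlaps cannot be told apart.

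The 250 bases before the RefSeq start (GRCm38.p6) are printed for the 5 windows that held no annotated exon. Mmp14 and Timp1 are shown beside the chromosome 9 neighbours because they were, with Mmp3, abundant in fibroblast-like cells. Capitals mark matches to 3 short motifs searched on both strands, the AP-1 motif TGANTCA, the TATA box TATAAA and the GC box GGGCGG.
Mmp3, chr9:7445572-7445821, + strand: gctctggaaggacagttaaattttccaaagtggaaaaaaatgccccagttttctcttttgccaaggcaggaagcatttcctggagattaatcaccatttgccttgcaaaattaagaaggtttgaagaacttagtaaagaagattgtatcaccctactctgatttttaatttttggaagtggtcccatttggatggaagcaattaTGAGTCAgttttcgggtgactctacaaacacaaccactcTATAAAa
Mmp8, chr9:7558179-7558428, + strand: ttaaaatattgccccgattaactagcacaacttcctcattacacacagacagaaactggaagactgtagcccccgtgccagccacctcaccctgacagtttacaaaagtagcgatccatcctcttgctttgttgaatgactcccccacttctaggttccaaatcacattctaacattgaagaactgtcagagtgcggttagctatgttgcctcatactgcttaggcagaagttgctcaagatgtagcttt
Mmp12, chr9:7347124-7347373, + strand: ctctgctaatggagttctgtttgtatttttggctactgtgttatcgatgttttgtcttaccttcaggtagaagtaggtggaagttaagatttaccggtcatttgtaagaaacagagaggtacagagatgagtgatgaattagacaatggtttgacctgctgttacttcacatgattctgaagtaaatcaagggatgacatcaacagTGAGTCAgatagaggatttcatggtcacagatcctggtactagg
Mmp14, chr14:54431348-54431597, + strand: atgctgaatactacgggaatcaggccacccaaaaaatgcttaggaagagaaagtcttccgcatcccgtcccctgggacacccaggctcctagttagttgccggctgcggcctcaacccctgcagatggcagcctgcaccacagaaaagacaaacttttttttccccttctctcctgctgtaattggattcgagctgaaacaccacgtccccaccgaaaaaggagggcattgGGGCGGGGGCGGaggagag
Timp1, chrX:20869916-20870165, + strand: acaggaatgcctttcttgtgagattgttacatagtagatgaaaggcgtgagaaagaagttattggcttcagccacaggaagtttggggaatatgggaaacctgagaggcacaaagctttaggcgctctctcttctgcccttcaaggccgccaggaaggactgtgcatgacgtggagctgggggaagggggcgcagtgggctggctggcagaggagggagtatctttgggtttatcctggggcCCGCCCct
The Mmp12 window lies inside the annotated gene, between annotated exons, before the second RefSeq start listed. AP-1 motifs stood 46 bases before the start of Mmp3 and 44 before that of Mmp12, and a TATA box 7 bases before the start of Mmp3. Mmp14 held a pair of adjoining GC boxes, 19 and 13 bases before its start, and Timp1 held 1, read on the other strand, 8 bases before its own. The Mmp8 window held none of the motifs, and neither did the window at the first Mmp12 start, at the annotated gene start, which overlaps an exon and is not printed. Of 32851 windows of the same length in the table, 6.75% held the AP-1 motif, 12.4% the TATA box and 32.7% the GC box. A match is a string of letters and not a shown binding site. Windows were found for 7 of the 10 members, and none for Mmp2, Mmp9 and Mmp19.

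The proteases divided mainly between fibroblasts and leukocytes, and the inhibitors were mostly in vessel wall cells. Mmp2, Mmp3 and Timp1 RNA came almost wholly from fibroblast-like cells. Mmp8 and Mmp9 came mainly from neutrophil-like cells, Mmp19 from monocyte/macrophage-like cells and Mmp12 largely from a few dendritic-like cells. Mmp14, Timp2 and Timp3 were shared by several classes.

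**Figure D1:**
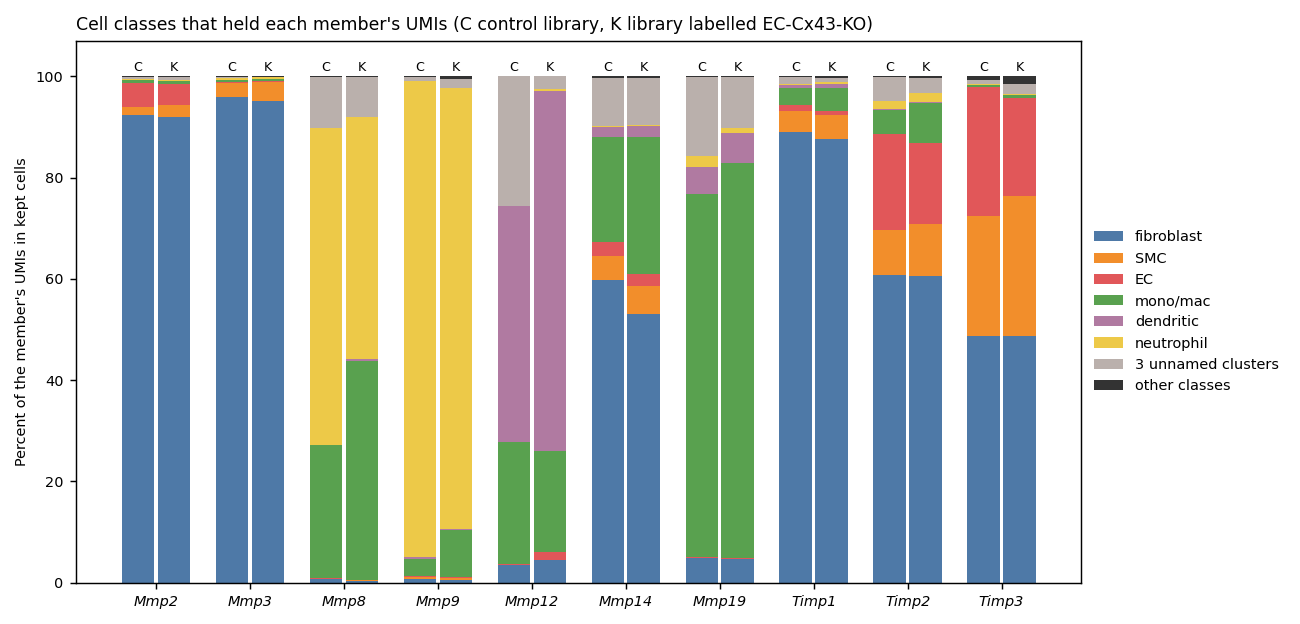
Percent of each member's UMIs in kept cells (y axis, 0 to 100%) held by each cell class, with 1 bar per library (C, control; K, labelled knockout). Fibroblast-like cells fill over 87% of the Mmp2, Mmp3 and Timp1 bars in both libraries.

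Mmp3, stromelysin-1, cuts many matrix proteins and activates other proMMPs. It was the most abundant of the 7 proteases in fibroblast-like cells, at 1280 CPM in control and 1090 CPM in the library labelled knockout. These cells held 95.8% and 95% of all its UMIs. SMC-like cells followed at 133 and 121 CPM, lower than fibroblasts in both libraries and with intervals apart. In the control SMC-like cells 228 of 536 Mmp3 UMIs, or 42.5%, came from 1 cell. Among fibroblasts Mmp3 was also uneven: the 10% of cells with the most held 77.9% of its UMIs in the control and 80.8% in the other library.

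Mmp2, gelatinase A, stood in fibroblast-like cells at 276 CPM in control and 234 CPM in the library labelled knockout, 92.4% and 92% of all its UMIs. EC-like cells came next at 51.1 and 39.4 CPM, ahead of SMC-like cells at 16.9 and 16.1 CPM. Mmp2 was more evenly spread than Mmp3, with 42.5% and 42.6% of its fibroblast UMIs in the top 10% of cells.

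Mmp14, the membrane-bound MMP that activates proMMP-2, was broadly expressed. Its level in fibroblast-like cells was 320 CPM in control and 263 CPM in the library labelled knockout, and in monocyte/macrophage-like cells 137 and 141 CPM. Dendritic-like cells had 106 and 88.8 CPM, SMC-like cells 89.8 and 76.0 CPM and EC-like cells 50.8 and 45.3 CPM. Fibroblasts were highest with intervals apart from the next class, the unnamed cluster c4, which had 155 and 210 CPM. Schwann-like cells and the unnamed cluster c17 lay between c4 and monocyte/macrophage-like cells, with intervals that overlapped their neighbours in that order.

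Mmp19, a secreted MMP that cuts basement membrane proteins, was the most abundant of the 7 proteases in monocyte/macrophage-like cells. It reached 1240 CPM in control and 1100 CPM in the knockout-labelled monocyte/macrophage-like cells, which held 71.7% and 78.1% of its UMIs. Dendritic-like cells had 680 and 671 CPM and the unnamed cluster c4 639 and 524 CPM. Monocyte/macrophage-like cells were above every other class with intervals apart, while fibroblast-like cells had only 67.5 and 61.6 CPM. Mmp19 made up 85.6% and 83.2% of the UMIs of the 7 proteases in monocyte/macrophage-like cells.

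The neutrophil proteases followed another order. Mmp9, gelatinase B, which neutrophils store in granules, stood at 1320 CPM in control and 911 CPM in the knockout-labelled neutrophil-like cells. These cells held 94.1% and 87.0% of its UMIs, and the next class, monocyte/macrophage-like, had 9.57 and 17.1 CPM. Mmp8, neutrophil collagenase, stood at 445 and 301 CPM in neutrophil-like cells and at 38 and 48.5 CPM in monocyte/macrophage-like cells. The neutrophil share of Mmp8 was 62.6% in the control and 47.9% in the library labelled knockout, where monocyte/macrophage-like cells held 43.2% against 26.2%.

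Mmp12, macrophage elastase, was in these samples highest in dendritic-like cells, at 184 CPM in control and 190 CPM in the library labelled knockout. Only 9 and 6 dendritic-like cells had any. A single cell held 37.6% of the control UMIs and 85.9% of the others, and without the top cell of each library the levels were 116 and 27.1 CPM. In monocyte/macrophage-like cells Mmp12 stood at 12.6 and 6.59 CPM, from 16 and 23 cells. The level of Mmp12 in a class was therefore the level of a handful of cells.

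Of the inhibitors, Timp1, which is secreted and readily induced in inflamed tissue, was a fibroblast RNA. It stood in fibroblast-like cells at 2190 CPM in control and 2020 CPM in the library labelled knockout, the highest value of any of the 10 genes there, and these cells held 89.0% and 87.6% of its UMIs. SMC-like cells had 365 and 304 CPM, dendritic-like cells 153 and 175 CPM and monocyte/macrophage-like cells 102 and 110 CPM. EC-like cells were lower still at 90.2 and 67.2 CPM.

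Timp2, which inhibits MMPs and bridges Mmp14 to proMMP-2, stood at 664 and 670 CPM in EC-like cells and at 591 and 665 CPM in fibroblast-like cells, which could not be ordered within the spread of the libraries. SMC-like cells followed at 305 and 317 CPM. Neutrophil-like cells had 84.1 and 117 CPM and monocyte/macrophage-like cells 57.2 and 90.8 CPM. Because fibroblasts were more numerous, they held 60.7% and 60.5% of the Timp2 UMIs, and EC-like cells 18.9% and 16.1%.

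Timp3, the inhibitor that binds to the matrix, was the leading inhibitor of the inner vessel wall. It stood at 1480 and 1250 CPM in EC-like cells and at 1340 and 1310 CPM in SMC-like cells, which could not be ordered, and at 783 and 830 CPM in fibroblast-like cells. Schwann-like cells were listed above them at 2150 and 2090 CPM, but 78.7% of the control value came from 1 of 11 cells, and without the top cell of each library the levels were 479 and 1500 CPM. In monocyte/macrophage-like cells Timp3 stood at 6.09 and 9.02 CPM. That is below the 17.2 and 15.4 CPM of the estimated free RNA in the suspension, so these UMIs are read as background.

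**Figure D2:**
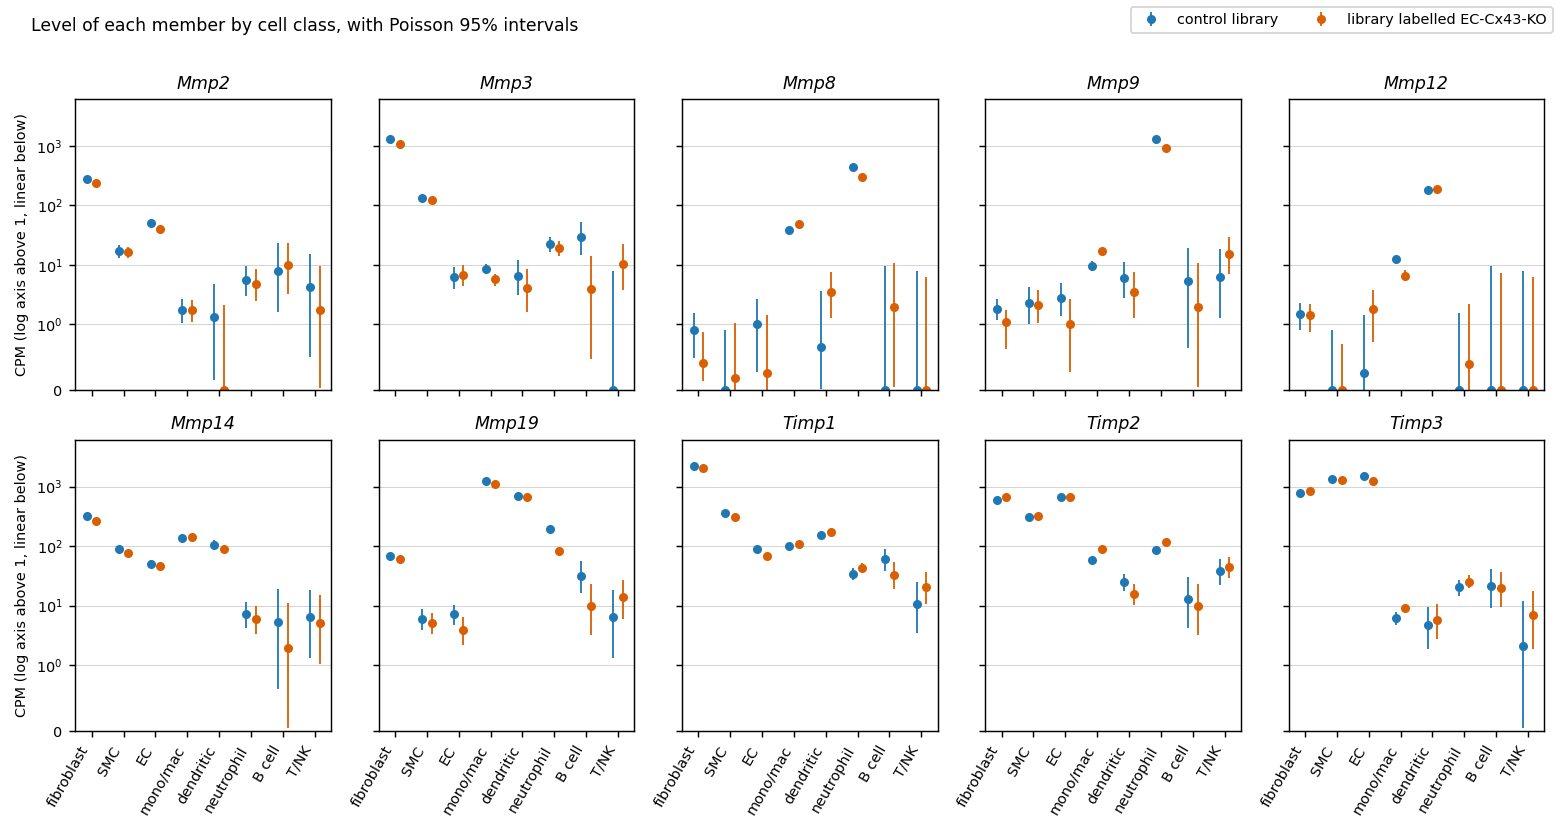
CPM of each member (y axis, log above 1 and linear below) in 8 cell classes (x axis), as 1 point per library with its Poisson 95% interval. Timp3 is at least 783 CPM in fibroblast-, SMC- and EC-like cells and at or below 25.3 CPM in the leukocyte classes shown.

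Shares of cells gave the same picture at equal depth. With each cell thinned to 1000 UMIs, Timp3 was detected in 63.2% of control and 62.9% of knockout-labelled SMC-like cells and in 59.1% and 53.6% of EC-like cells. Mmp19 was detected in 55.9% and 49.9% of monocyte/macrophage-like cells and Timp1 in 55.0% and 58.7% of fibroblast-like cells. As background, Mmp19 was detected in 3.12% of control and 0 of 154 knockout-labelled B-cell-like cells, which by 3 counts of the total allows a share of cells with a UMI of up to 1.95%, and in 1.00% and 0.741% of T/NK-like cells. Timp3 was detected in 3.12% and 3.25% of B-cell-like cells. Before thinning, the B-cell-like cells had medians of 3151 and 2523 UMIs, the T/NK-like cells 4179.5 and 3551, and the monocyte/macrophage-like cells 6171 and 6519.

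The balance of inhibitor to protease RNA separated the vessel wall from the myeloid classes. All 3 wall classes had more TIMP than MMP UMIs, and the monocyte/macrophage-, neutrophil- and dendritic-like cells had fewer, in both libraries. In the control library there were 18.7 TIMP UMIs per MMP UMI in EC-like cells, 8.11 in SMC-like and 1.83 in fibroblast-like cells. The ratio was 0.186 in dendritic-like, 0.115 in monocyte/macrophage-like and 0.0692 in neutrophil-like cells. In the library labelled knockout these values were 20.2, 8.74, 2.13, 0.205, 0.159 and 0.14. The unnamed cluster c17, shallow cells led by Fabp4, Gpihbp1, Rbp7 and Kdr, had 5.54 and 11.4. From few UMIs, B-cell-like cells had 1.2 and 2.13 and T/NK-like cells 2.18 and 1.56.

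**Figure D3:**
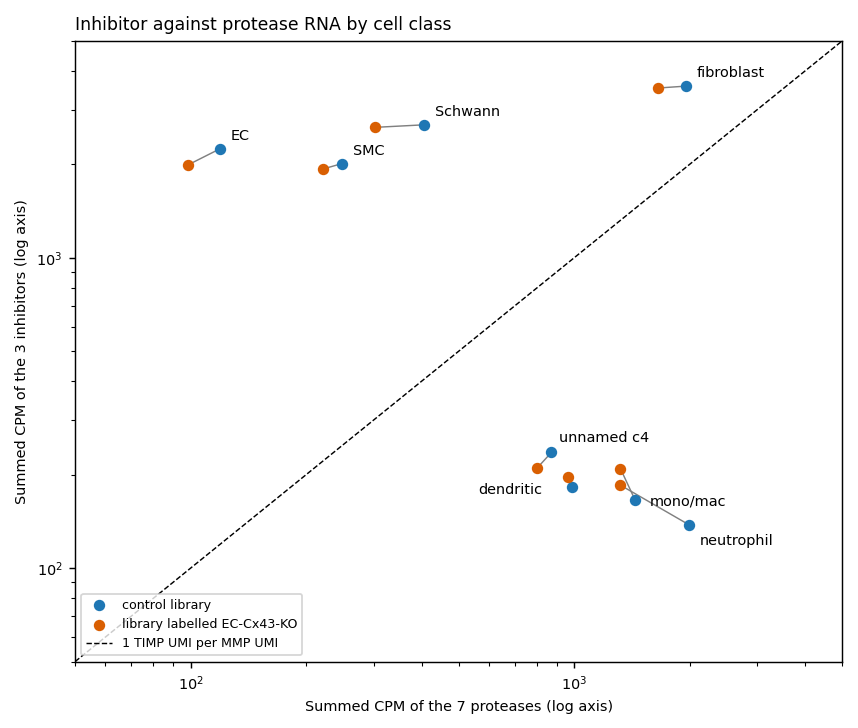
Summed CPM of the 3 inhibitors (y axis, log) against summed CPM of the 7 proteases (x axis, log), with 1 point per class and library and the 2 libraries of a class joined. Of the 8 classes plotted, the wall classes and Schwann-like cells lie above the dashed line of equal UMIs, and monocyte/macrophage-, dendritic- and neutrophil-like cells and cluster c4 below it.

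The same balance hid different mixtures. In fibroblast-like cells, where MMPs summed to 1950 CPM in control and 1650 CPM in the other library, Mmp3 made up 65.7% and 66.1% of the protease UMIs and Timp1 61.5% and 57.5% of the inhibitor UMIs. In EC-like cells, where MMPs summed to 119 and 98.4 CPM, Mmp2 (42.8% and 40.1%) and Mmp14 (42.6% and 46.1%) made up the protease UMIs almost evenly. Timp3 made up 66.3% and 63.0% of the EC inhibitor UMIs. Neutrophil protease UMIs were 66.2% and 68.8% Mmp9.

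Between the libraries, inhibitor UMIs per protease UMI were higher in the library labelled knockout in all 6 of these classes, by unequal amounts. Over all kept cells the ratio was 1.27 in the control library and 1.44 in the library labelled knockout, a log2 difference of 0.18 (interval 0.16 to 0.20). The difference was 1.02 in neutrophil-like cells (0.80 to 1.23) and 0.47 in monocyte/macrophage-like cells (0.38 to 0.56). In fibroblast-like cells it was 0.22 (0.19 to 0.25). In SMC-, EC- and dendritic-like cells the values were 0.11, 0.11 and 0.14, each with an interval that included 0. Only the neutrophil difference was past 1.5-fold. In Y cells alone the sign turned in EC-like (−0.40), SMC-like (−0.07) and monocyte/macrophage-like cells (−0.03), while the neutrophil difference was 1.24. These classes share their libraries and are not independent of each other.

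Neutrophil-like cells showed lower levels of Mmp8, Mmp9 and Mmp19 in the library labelled knockout. Mmp19 was at 192 CPM in the control library (450 UMIs in 207 cells) and 81.4 CPM in the other (203 UMIs in 125 cells). The control level was thus 2.36-fold higher, a log2 ratio of −1.24 (−1.48 to −1.0). Mmp9, at 1320 and 911 CPM, had a log2 ratio of −0.53 (−0.61 to −0.46), and Mmp8, at 445 and 301 CPM, one of −0.57 (−0.70 to −0.43). Timp2 was at 84.1 and 117 CPM, a log2 ratio of 0.47 (0.21 to 0.74). Neutrophil Timp1 was at 33.7 and 43.3 CPM and Timp3 at 20.1 and 25.3 CPM, against free RNA levels of 26.4 and 20.9 CPM for Timp1 and 17.2 and 15.4 CPM for Timp3. Those levels use median free RNA shares of 3.27% and 2.91% of the library profile. In neutrophil-like cells the estimated shares were higher, from 4.54% to 10.2% in the control library and from 5.56% to 9.58% in the other. These Timp1 and Timp3 values therefore cannot be told apart from background.

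Of 9 members with at least 20 UMIs in neutrophil-like cells, 1 was at least 1.5-fold lower (Mmp19) and none higher. Of all 8295 genes counted there, 9.11% were as much higher and 10.4% as much lower, 19.6% in all, and the median log2 ratio was −0.21 for the members and −0.07 for all genes. At equal depth Mmp9 was detected in 61.5% of control and 43.2% of knockout-labelled neutrophil-like cells, and Mmp19 in 13.2% and 5.96%. Thinning left 808 and 906 cells and dropped 293 and 384 shallower ones, and the unthinned shares were 66.3% and 51.5% for Mmp9 and 18.8% and 9.69% for Mmp19.

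The lower protease levels were seen in the larger neutrophil-like cluster and partly in the smaller one. In c0, led by Il1r2, Retnlg and Cxcr2 and 86.5% and 82.5% of the class, Mmp9 was at 1420 CPM in control and 1040 CPM in the other library, Mmp8 at 513 and 355 CPM and Mmp19 at 208 and 86.6 CPM. In c11, led by Hcar2, Acod1 and Ccl3, Mmp9 was at 754 and 432 CPM and Mmp19 at 102 and 62.3 CPM, but Mmp8 was at 65.2 CPM in control and 98.1 CPM in the library labelled knockout. Mmp8 thus ran in opposite directions in the 2 clusters, and the difference between them was not tested. All 15 monocyte/macrophage markers were present in neutrophil-like cells, at a sum of 1530 and 1590 CPM, and the free RNA level of Mmp19 was 15 and 12 CPM. Their part in the Mmp19 difference was not tested.

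Monocyte/macrophage-like cells had more Timp2 and Mmp9 in the library labelled knockout. Timp2 stood at 57.2 CPM in the control library (658 UMIs) and 90.8 CPM in the other (1267 UMIs), a log2 ratio of 0.66 (0.53 to 0.80). Mmp9 stood at 9.57 CPM (110 UMIs) and 17.1 CPM (239 UMIs), a log2 ratio of 0.84 (0.51 to 1.18). Mmp19, the most abundant of the 7 member proteases in these cells, had a log2 ratio of −0.17, Mmp14 of 0.05 and Timp1 of 0.10. All 3 turned sign in Y cells, to 0.19, −0.37 and −0.38. Mmp8, at 38 and 48.5 CPM, had a log2 ratio of 0.35, and one of −0.01 (−0.24 to 0.22) in Xist cells.

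Of the 10 members counted there, 2 were at least 1.5-fold higher (Mmp9 and Timp2) and 2 lower (Mmp3 and Mmp12). Of all 12673 genes, 9.03% were as much higher and 3.8% as much lower, 12.8% in all. Mmp3, at 8.53 and 5.66 CPM with a log2 ratio of −0.59, was below its free RNA level of 14.3 and 10.4 CPM in both libraries, and its values are read as background. Mmp12 had a log2 ratio of −0.94 from 145 UMIs in 16 control cells and 92 UMIs in 23 others, of which single cells held 58 and 28. Its sign turned under 4 of 15 alternatives, among them 0.77 with at most 10% mitochondrial UMIs and 2.34 with doublets kept.

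The class was made up differently in each library, and Timp2 and Mmp9 were highest in a cluster whose share differed. The cluster c12, led by Lyve1, Cd163, Il10 and C1qa, genes known from resident macrophages, was 5.15% of the class in the control library and 12.2% in the library labelled knockout. It had 652 and 618 CPM of Timp2 and 97.5 and 122 CPM of Mmp9, far above the other large clusters. In c1 (Ccl24, Fn1 and Arg1; 61.5% and 44.0% of the class) Timp2 was at 31.2 and 38.2 CPM. In c7 (Chil3, Nrg1, Lyz2 and Ccr2; 21.4% and 17.7%) it was at 12.8 and 13.9 CPM, and in c8 (Cxcl10, Rsad2 and Ccl12; 10.8% and 23.9%) at 62.2 and 55.9 CPM. Mmp9 was higher in the library labelled knockout in c1, at 5.49 and 8.98 CPM from 34 and 52 UMIs. It was lower in c7, at 5.29 and 1.9 CPM from 17 and 6 UMIs, and in c8, at 5.47 and 2.03 CPM from 8 and 7 UMIs. Over 15 alternatives the Mmp9 log2 ratio of the class ranged from 0.37 to 1.29.

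Weighting the clusters equally, an alternative added after seeing the data, gave a Timp2 log2 ratio of −0.11 in place of 0.66. It gave −0.01 in place of 0.47 for the difference in TIMP per MMP. Within clusters Mmp19 was likewise level, at 1650 and 1650 CPM in c1, 852 and 823 CPM in c7 and 776 and 811 CPM in c8. Cluster c12 was the only one of these 4 with more TIMP than MMP UMIs, 1.76 per MMP UMI in the control and 1.45 in the library labelled knockout, against 0.0934 and 0.112 in c1, 0.0709 and 0.105 in c7 and 0.15 and 0.127 in c8. The ratio was thus higher in the library labelled knockout in c1 and c7 and lower in c8 and c12.

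**Figure D4:**
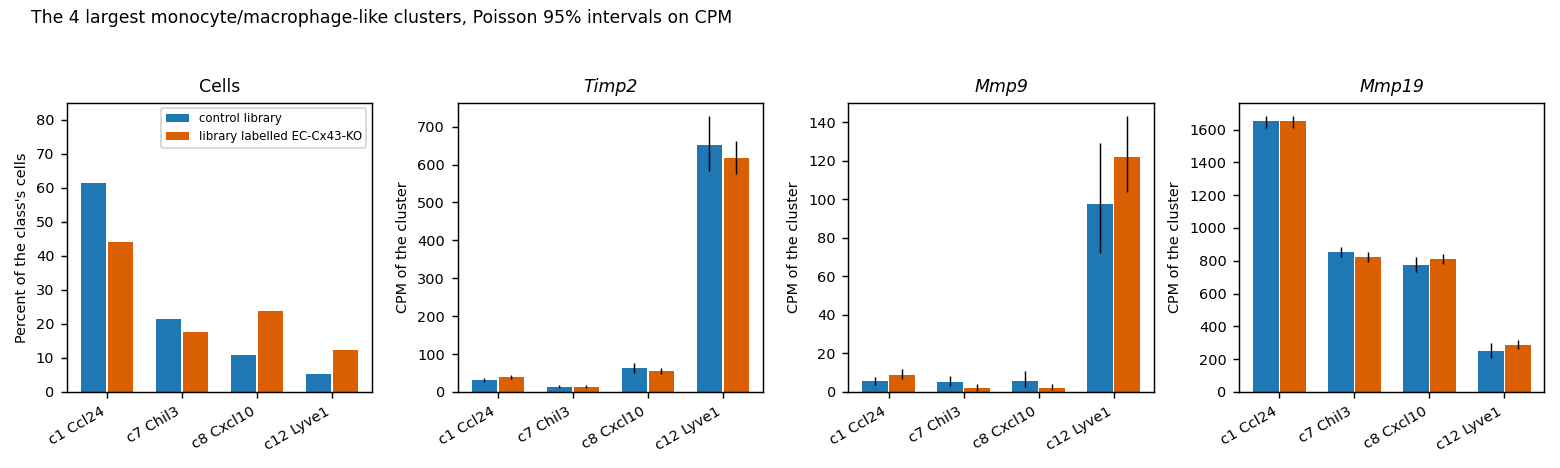
The 4 largest monocyte/macrophage-like clusters: percent of the class's cells (first panel) and CPM of Timp2, Mmp9 and Mmp19 (other panels) as bars for each library, with Poisson 95% intervals on CPM. Timp2 and Mmp9 are highest in the Lyve1 cluster c12, which is 5.15% of the control and 12.2% of the knockout-labelled class.

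In fibroblast-like cells the proteases were slightly lower in the library labelled knockout and 2 of the inhibitors slightly higher. Mmp14 (320 and 263 CPM) had a log2 ratio of −0.29 (−0.35 to −0.23), Mmp2 (276 and 234 CPM) one of −0.24 (−0.31 to −0.17) and Mmp3 (1280 and 1090 CPM) one of −0.23 (−0.26 to −0.20). Timp1 was lower by less, at −0.12 (−0.14 to −0.09). Timp2 had a log2 ratio of 0.17 (0.13 to 0.21) and Timp3 one of 0.09 (0.05 to 0.12). None of these 6 reached 1.5-fold. The signs of Timp1 (0.20) and Timp3 (−0.15) turned in Y cells and that of Mmp3 (0.05) in Xist cells.

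Of 9 fibroblast members with at least 20 UMIs, the 1 past 1.5-fold was Mmp9, lower at 1.84 and 1.09 CPM from 26 and 16 UMIs, with an interval from −1.76 to 0.19. Of all genes in this class 5.65% were as much higher and 5.65% as much lower, 11.3% in all. The free RNA level of Mmp9, 2.49 and 1.60 CPM, was above both values. Its log2 ratio was 0.48 in Xist cells, from 9 and 9 UMIs, and −1.84 in Y cells, from 10 and 4 UMIs.

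Fibroblast-like clusters differed from each other in their inhibitors. Cluster c5 (Ccn5, Smoc2 and Comp) had 2480 CPM of Timp3 in the control and 2700 CPM in the library labelled knockout, while c2 (Cxcl5, Rdh10 and Tnfrsf11b) had 307 and 322 CPM. Timp1 ran the other way, at 3130 and 2810 CPM in c2 and 1660 and 1750 CPM in c5. In c10 (Igfbp5, Pcsk6 and Pi16) Timp2 was highest, at 1080 and 1240 CPM, Mmp3 was at 885 and 589 CPM and Timp1 at 656 and 826 CPM. Inhibitor UMIs per protease UMI were 1.17 and 1.88 in c10, against 1.97 and 2.12 in c2 and 1.98 and 2.32 in c5. The shares of the class in these clusters were close, at 47.3% and 47.8% in c2, 30.5% and 28.5% in c5 and 12% and 14% in c10.

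Shares of single cells were taken over whole classes and not split by cluster. In fibroblast-like cells they therefore also carry the differences between clusters just described. At 1000 UMIs per cell, 29.2% of control and 32.3% of knockout-labelled fibroblasts with Timp1 also had Timp3, against 38.8% and 40.2% of those without Timp1. Timp2 and Timp3 went together: 44.4% and 48.7% of cells with Timp2 had Timp3, against 25.6% and 26.3% of the rest. Cells with Mmp3 had Timp1 more often, at 60.7% and 69.1% against 52.5% and 54.7%. For the activation partners, Timp2 was found in 48.8% and 48.0% of fibroblasts with Mmp14 and in 40.0% and 39.8% of those without. In EC-like cells the shares with Mmp14 were 27.3% (6.02 to 61.0%) and 28.6% (8.39 to 58.1%), from 11 and 14 such cells. Without Mmp14 they were 43.7% and 47.3%, inside those intervals, so no order can be read there. Among monocyte/macrophage-like cells Timp2 was less frequent with Mmp19, at 3.40% and 4.67%, than without, at 7.42% and 12.8%. Cells of a library are not replicates, and these shares are descriptions.

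In EC-like cells, the class that the Cdh5 promoter targets, differences were small. Timp3 was at 1480 CPM in control and 1250 CPM in the library labelled knockout, a log2 ratio of −0.24 (−0.30 to −0.19). Timp1, at 90.2 and 67.2 CPM, had −0.42 (−0.66 to −0.19), and Mmp2, at 51.1 and 39.4 CPM, had −0.38 (−0.69 to −0.06). Timp2, at 664 and 670 CPM, had 0.01 (−0.07 to 0.09). In Xist cells alone Timp3 had a log2 ratio of 0.01, and in Y cells Mmp2 had one of 0.36. Of 7 members counted, none was 1.5-fold higher and Mmp19 alone was lower, from 28 and 15 UMIs at 7.15 and 3.86 CPM. Both values lay under its free RNA level, and 4.29% of all genes in this class were 1.5-fold higher and 5.95% lower, 10.2% in all. The log2 ratio of Mmp19 was −1.9 in Xist cells, from 18 and 3 UMIs, and 0.91 in Y cells, from 2 and 10 UMIs.

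EC-like cells were clustered again into 4 groups. The smallest, E3 (29 control and 30 knockout-labelled cells; Ccnd1, Procr and Ano1; a median of 15555 UMIs per cell), had 318 and 208 CPM of Timp1 and 753 and 700 CPM of Timp3. In the other groups Timp3 was between 1260 and 1860 CPM. Timp1 there was close between the libraries, at 38.5 and 37.7 CPM in E0, 45.9 and 49.8 CPM in E1 and 71.2 and 71.7 CPM in E2. The lower Timp1 of the class in the library labelled knockout was thus seen in E3 and not in the other groups. Single cells held 54 of the 353 control and 25 of the 261 knockout-labelled Timp1 UMIs of the class. The lower Timp3 of the class in the library labelled knockout was seen in E0 (1510 and 1260 CPM) and E1 (1860 and 1320 CPM) but was small in E2 (1500 and 1490 CPM), which was led by Lyz2, Acta2 and Spp1, genes of other cell types.

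In SMC-like cells none of 8 members passed 1.5-fold, where 10.1% of all genes did, 5.41% higher and 4.67% lower. Timp1, at 365 and 304 CPM, had a log2 ratio of −0.27, and Mmp14, at 89.8 and 76.0 CPM, one of −0.24. The SMC group S2 (57 and 104 cells; Ifit3, Lum, Timp1 and Esm1) had most Timp1, at 1340 and 974 CPM, and most Mmp3, at 462 and 291 CPM. In the largest group, S0, Timp1 was at 37.3 and 24.1 CPM and Mmp3 at 5.09 and 4.52 CPM. Lum is a fibroblast marker, and its part in the S2 values was not tested. Timp3 was high in S0 too, at 1100 and 1040 CPM.

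In dendritic-like cells Mmp19, at 680 and 671 CPM, was the most abundant of the 7 member proteases. Mmp12 followed, from its few cells, and then Mmp14 at 106 and 88.8 CPM. Of 5 members counted, 1 was lower, Timp2 at 25.1 and 15.7 CPM with a log2 ratio of −0.68, where 21.7% of all genes passed 1.5-fold, 6.84% higher and 14.9% lower. Cluster c4 had Mmp14 at 155 and 210 CPM and Timp2 at 137 and 122 CPM. Its Mmp12, at 24.4 and 1.73 CPM, came in the control library from 1 cell for 81 of 100 UMIs.

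**Figure D5:**
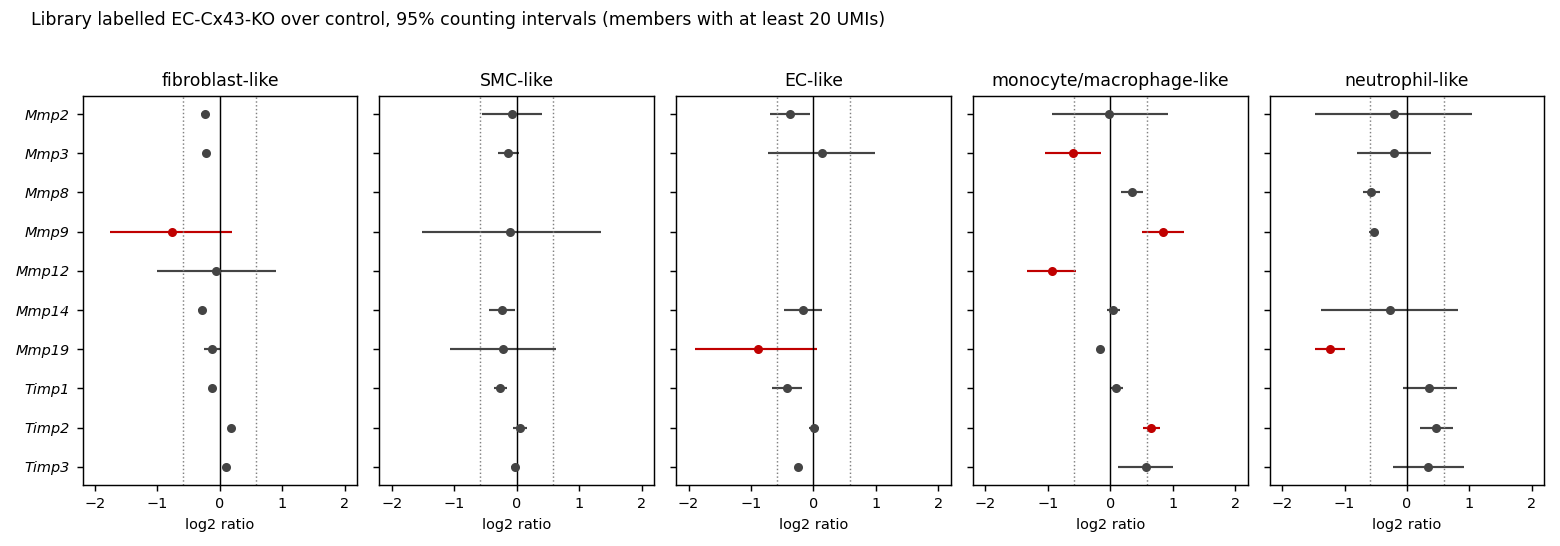
Log2 ratio of the library labelled knockout over the control library (x axis) for each member with at least 20 UMIs, in 5 classes, with 95% counting intervals. Dotted lines mark 1.5-fold and red points lie past it: Mmp19 in neutrophil-like cells is at −1.24, while fibroblast-like members other than Mmp9 lie between −0.29 and 0.17.

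Genes around the 10 members were taken from 5 lists: other MMPs with Timp4 (16 of 17 found in the files), ADAMTS and ADAM proteases (17), activators, receptors and other inhibitors (16), cysteine and serine matrix proteases (12) and matrix substrates (19). Their counts past 1.5-fold are to be read against the shares of all genes given above for each class, such as 9.03% higher and 3.8% lower in monocyte/macrophage-like cells and 5.65% each way in fibroblast-like cells. Among other MMPs, Mmp13 is a collagenase. Its level in monocyte/macrophage-like cells was 2.00 CPM in the control library (23 UMIs in 17 cells) and 17.5 CPM in the library labelled knockout (244 UMIs in 77 cells), a log2 ratio of 3.13 (2.51 to 3.81). The top cell held 8.61% of the 244 UMIs. Of them, 218 lay in the Cxcl10 cluster c8, where the level was 4.10 CPM in control and 63.1 CPM in the library labelled knockout. In c1 it was at 2.10 and 2.07 CPM. Of the 4 genes of this list counted in the class, 3 were higher and none lower. In fibroblast-like cells Mmp13 was at 4.8 and 7.47 CPM and Mmp11 at 7.98 and 3.73 CPM, and of 6 genes 1 was higher and 2 lower.

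Of the activators and receptors, Plat, tissue plasminogen activator, was at 356 and 224 CPM in EC-like cells, a log2 ratio of −0.67. None of 14 such genes passed in fibroblast-like and none of 12 in SMC-like cells. In monocyte/macrophage-like cells 2 of 13 were higher and 1 lower.

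Among ADAMTS and ADAM proteases none of 12 passed in monocyte/macrophage-like cells. In fibroblast-like cells 2 of 17 were lower, among them Adamts4, an aggrecanase, at 17.9 and 11.4 CPM, and in EC-like cells 2 of 14 were lower. In neutrophil-like cells 2 of 11 were higher and 1, Adam10, a sheddase, was lower at 250 and 157 CPM. Of the cysteine and serine proteases, 4 of 12 were higher in monocyte/macrophage-like cells, but for Prtn3 180 of 319 and for Ctsg 50 of 52 knockout-labelled UMIs came from 1 cell.

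Of the substrates, Tnc, the matrix protein tenascin-C, was higher in the library labelled knockout in fibroblast-like cells, at 43.5 and 75.9 CPM (log2 ratio 0.81), and in SMC-like cells, at 72.9 and 122 CPM (0.74). Tnc was among the leading genes of the SMC group S2, which was 57 of 411 control and 104 of 545 knockout-labelled cells. The part of S2 in the SMC difference was not tested. Spp1, osteopontin, which MMPs cut, was lower in EC-like cells, at 99.1 and 36.1 CPM, and in fibroblast-like cells, at 258 and 142 CPM. In the control EC-like cells 155 of 388 Spp1 UMIs, or 39.9%, came from 1 cell, and without the top cell of each library the levels were 59.7 and 34.8 CPM. In the control fibroblast-like cells 1 cell held 610 of 3651 Spp1 UMIs, and without the top cells the levels were 216 and 131 CPM. Spp1 was also a leading gene of the monocyte/macrophage-like cluster c1 and of c4. The part of free RNA in its EC and fibroblast values was not tested. Of the substrates counted, 1 was higher and 1 lower among 17 in EC-like and 19 in fibroblast-like cells, 1 higher and 2 lower among 19 in SMC-like, 2 higher and 1 lower among 17 in monocyte/macrophage-like, and none higher and 4 lower among 14 in neutrophil-like cells, where 9.11% of all genes were higher and 10.4% lower.

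Across 8 classes in 2 libraries (16 points that share libraries and depth, given as a description), the members' patterns were set beside 11692 genes. Mmp9 was most like Il1f9 (Pearson r 0.989), Acod1 (0.988) and Cxcr2 (0.987), and Mmp8 most like Fpr2 (0.989), Cd177 (0.988) and Fpr1 (0.987). Mmp3 was most like C1s1 (0.989), Medag (0.987) and Col14a1 (0.983), and Mmp2 most like Nid1 (0.986). Mmp19 was most like Tgfbi (0.972), Rab7b (0.967) and Dmkn (0.961), and Mmp12 most like Lyz1 (0.997) and Batf3 (0.991). The highest Mmp12 points, those of dendritic-like cells, came from only 9 control and 6 knockout-labelled cells, which limits its r. Timp3 was most like Gulp1 (0.997), Mgp (0.995) and Ptprg (0.994), Timp2 most like Pam (0.967), and Timp1 most like Slc39a14 (0.961). Mmp14 had the loosest matches of the proteases, with Surf4 at 0.966. Between members the highest r were 0.94 for Mmp8 with Mmp9, 0.89 for Timp2 with Timp3 and 0.88 for Mmp3 with Timp1, and Mmp19 with Timp3 had −0.55.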

How the data were processed

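The 2 deposited tables hold UMI counts per gene and barcode, made by the authors with Cell Ranger 8.0.1 per the submitters' processing notes, which also name STAR and mm10; counting options are not given in the sources used here. Every barcode had at least 501 UMIs. Barcodes under 300 genes or over 15% mitochondrial UMIs were dropped, and predicted doublets (363 control, 476 knockout-labelled) were removed by their share of simulated neighbours, at an assumed rate of 0.008 per 1000 cells. The 2000 most variable genes, without MMP, TIMP, ADAM and ADAMTS genes, gave 30 principal components, 20 neighbours and Leiden clusters at resolution 1.0. Clusters were named from marker lists with at least 3 detected markers, and stayed unnamed if shallow or led by another class's markers.

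UMIs were added up over the cells of a class in each library and expressed as CPM, with exact Poisson intervals; ratios have exact conditional binomial intervals, shares Clopper-Pearson intervals and TIMP per MMP differences Woolf intervals. A value under 3 UMIs took 3 in ratios. All members are named; from each list, the 2 highest and 2 lowest log2 ratios with at least 50 UMIs could be named. Like genes had at least 200 UMIs, with 10 CPM added before the log. The Mmp13 cluster values and the second-stage cell groups are descriptions chosen after values were seen. One gene of the activator list and the counts that rest on it are not reported here. Members and lists were chosen with earlier results of these data known. Free RNA was estimated from markers in classes that should lack them (medians 3.27% and 2.91% of the library profile). Single estimates ran from 0.715% to 10.2% in the control library and from 1.52% to 16.9% in the other. The free RNA levels of members given above use the medians. Ratio scripts were tested on simulated data. Alternatives covered filters, doublets, clustering, scaling, free RNA and sex-linked splits. Software was matplotlib 3.10.9, leidenalg 0.10.2, igraph 0.11.9, scikit-learn 1.9.0, pandas 2.3.3, SciPy 1.17.1, NumPy 2.4.6 and Python 3.11.15.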

Additional observations from a re-analysis of the deposited data

Results flagged for a closer look

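Cells with Xist and no Y-linked UMIs and cells with Y-linked and no Xist UMIs gave opposite directions between the libraries, each with a counting interval that left out 0, for 6 pairs of a member and a class. Other pairs that differed in sign had an interval that included 0 and are not listed. In monocyte/macrophage-like cells the log2 ratio, knockout-labelled over control, was 0.21 in Xist cells and −0.37 in Y cells for Mmp14, −0.33 and 0.19 for Mmp19, and 0.35 and −0.38 for Timp1. In fibroblast-like cells it was −0.11 and 0.20 for Timp1 and 0.27 and −0.15 for Timp3, and in SMC-like cells −0.67 and 0.84 for Mmp3. Of the 536 Mmp3 UMIs of control SMC-like cells, 228 came from 1 cell, while Xist cells held 442 and Y cells 73. No set other than the Xist cells held as many as that cell. The −0.67 thus rests in large part on 1 cell, whose weight its counting interval does not cover. Each of the 6 pairs rests on 1 library per group, and these differences between female and male cells were not tested.

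The predicted doublets, which the reported levels leave out and the alternative with doublets kept uses, held 5 members above their level in the control doublets, with intervals apart. In the library labelled knockout they held 2213 UMIs of Mmp3, 3243 of Timp1, 1483 of Timp2 and 2481 of Timp3, at 358, 525, 240 and 401 CPM, against 312, 481, 195 and 292 CPM in the control doublets. For Mmp12 they held 347 UMIs, of which 266 came from 1 cell, against 12 in the control doublets. The other members were not above the control doublets in this way: Mmp19 had 545 CPM against 695 in the control doublets, Mmp2 59.7 against 70.8, Mmp14 184 against 186, Mmp8 33 against 32.6 and Mmp9 61.8 against 54.5.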

How the results depend on the processing

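No paired analysis was possible because each group had 1 library. The members' log2 ratios and the log2 differences in TIMP per MMP were recomputed under the alternatives and counted together. Of these values, 433 moved by less than their counting interval, 123 moved further, and 6 whose main value was past 1.5-fold changed sign. Values under 1.5-fold that changed sign are counted among the first 2 numbers. The sex-linked splits moved most values: in Xist cells 13 stayed within the interval, 25 moved further and 1 changed sign in this way. In Y cells the numbers were 12, 26 and 1. The Mmp12 ratio in monocyte/macrophage-like cells became 0.77 with at most 10% mitochondrial UMIs, 2.34 with doublets kept, 0.01 in Xist cells and 0.42 in Y cells. Mmp3 there became 1.39 with doublets kept, and Timp2 −0.11 with clusters weighted equally. Mmp19 in neutrophil-like cells ranged from −1.61 to −0.90 and was at least 1.5-fold lower in 15 of 15 alternatives. The log2 difference in TIMP per MMP in neutrophil-like cells ranged from 0.90 to 1.59 over 13 alternatives and moved to 1.33 with free RNA subtracted, 1.59 in Xist cells and 1.24 in Y cells. In monocyte/macrophage-like cells it moved to 0.59, 0.76 and −0.03 under the same alternatives and to −0.01 with equal cluster weights. In fibroblast-like cells it moved to 0.18 with at least 200 genes and with doublets kept, 0.37 as a mean of single-cell CPM, 0.04 in Xist cells, 0.16 in Y cells and 0.30 with equal weights. In SMC-like cells it moved to 0.27 with at least 200 genes, 0.24 with doublets kept, 0.32 in Xist and −0.07 in Y cells, and in EC-like cells to 0.49 with doublets kept, 0.64 in Xist and −0.40 in Y cells. The causes were not tested. Levels under about 20 CPM were near the free RNA estimate for Mmp3, Mmp19, Timp1 and Timp3, which limits what can be read from them.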
